A study of Mus musculus with 8 samples.

Results

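The genes described here are 9 of the 23 matrix metalloproteinase (Mmp) genes found in the table: Mmp2, Mmp3, Mmp9, Mmp11, Mmp13, Mmp14, Mmp16, Mmp19 and Mmp23. They were taken by symbol from a table of 50462 gene identifiers, and the other 14 Mmp genes serve as their comparison. The choice of the 9 genes was made with earlier results of these data known. RNA was sequenced from cartilage caps dissected from the medial side of the knee of 8 male, wild-type C57BL/6J mice, with 1 library per mouse. The 4 naive mice were 11 weeks old and had no surgery (day 0). The 4 DMM mice were 17 weeks old and had undergone destabilisation of the medial meniscus, in which the ligament that ties the medial meniscus to the tibia is cut and osteoarthritis follows, 42 days earlier. No sham-operated mice were analysed here, so surgery and the difference in age cannot be told apart in any value below. All p-values measure the spread between these individual mice.

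Matrix metalloproteinases are zinc-dependent proteases that cut the proteins of the extracellular matrix. Collagenases such as MMP13 cleave the triple helix of fibrillar collagen, gelatinases such as MMP2 and MMP9 digest the unwound chains, and stromelysins such as MMP3 cut proteoglycans and activate other proenzymes. Most are made as inactive proenzymes and are held in check by the tissue inhibitors of metalloproteinases (TIMPs), so an mRNA level is not an enzyme activity. In osteoarthritic cartilage MMP13 is known as the main enzyme that degrades type II collagen, while in growing bone MMP9 and MMP13 remodel the mineralised cartilage.

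The libraries held between 12479443 and 16548002 estimated counts. The samples are labelled as chondrocytes, and of the 11 chondrocyte markers only Matn1 had a mean under 10 normalised counts (estimated counts divided by the size factor of the library). The tissue held other cells too. Per kilobase of exon, Col1a1 of bone and fibrous tissue was at a mean of 20960 ± 6454 in the naive mice (SD, n = 4) against 2594 ± 1060 for the cartilage collagen Col2a1. The summed level of 10 neutrophil lineage genes ranged from 129190 to 194801 normalised counts in naive libraries and from 57055 to 116778 in DMM libraries, and all 10 were called lower (adjusted p of 0.05 or less in DESeq2 and a change of 1.5-fold or more). The summed levels of 8 osteoblast and osteocyte genes ranged from 119656 to 211742 and from 298052 to 408882 in the same order, with 7 of 8 called higher. Col1a1 is itself among these 8 genes and made up most of their sum in naive libraries, so the sum largely follows that gene. The summed levels of 8 genes of synovial and connective tissue fibroblasts ranged from 2768 to 4148 and from 3991 to 6894, with 4 of 8 called higher. In tissue of this kind, more cells of a type and more RNA per cell cannot be told apart, and the part of these lists in the results below was not tested.

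The upstream sequences of Mmp3 and Mmp13 are shown first because both genes lie in the same chromosome 9 cluster, both were higher in DMM libraries, and both are textbook targets of AP-1, the dimer of Jun and Fos proteins. The sequences are from RefSeq promoter windows of build GRCm38.p6, which were given for 5 of the 9 genes (Mmp3, Mmp11, Mmp13, Mmp14 and Mmp23) and for 13 of the 14 other Mmp genes. Each stretch runs from position -150 to position 20 relative to the RefSeq start of the gene, 5′ to 3′, and capitals mark the AP-1 heptamer TGACTCA (or TGAGTCA on the other strand), the Runx-type heptamer AACCACA (or TGTGGTT) and the TATA hexamer TATAAA (or TTTATA). All 3 genes lie on the forward strand. Mmp14, a called gene with no match to any of the 3 motifs in its window, is shown beside them.
Mmp3 (chr9:7445672-7445841): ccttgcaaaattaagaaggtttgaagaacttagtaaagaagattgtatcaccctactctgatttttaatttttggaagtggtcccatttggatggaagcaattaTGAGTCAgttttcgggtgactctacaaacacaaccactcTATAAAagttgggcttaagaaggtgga
Mmp13 (chr9:7272364-7272533): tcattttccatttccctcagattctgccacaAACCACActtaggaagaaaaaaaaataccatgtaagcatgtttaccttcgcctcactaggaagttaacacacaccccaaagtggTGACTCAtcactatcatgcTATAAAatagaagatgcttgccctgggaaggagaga
Mmp14 (chr14:54431448-54431617): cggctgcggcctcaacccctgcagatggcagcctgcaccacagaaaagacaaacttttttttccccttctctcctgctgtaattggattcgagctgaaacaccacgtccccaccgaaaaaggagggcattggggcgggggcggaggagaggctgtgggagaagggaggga

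The AP-1 heptamer began at position -46 in Mmp3 and at position -35 in Mmp13, and the windows of Mmp11, Mmp14 and Mmp23 held none. Mmp13 also held the Runx-type heptamer at position -119. Over the whole windows of 300 bases, 2 of 5 members held the AP-1 heptamer, 1 held the Runx-type heptamer and 2 held the TATA hexamer. Among all 20442 genes with a window, 5.59% held the AP-1 heptamer, 5.74% the Runx-type heptamer and 14.7% the TATA hexamer. The AP-1 heptamer was also found upstream of 5 other genes of the same cluster. Their windows of 30 bases around the match, with the heptamer in capitals, are given because these genes had the same letters and low counts.
Mmp1a (chr9:7464057-7464086, forward strand): gttgtcaaccaTGAGTCAcatagcctctgg
Mmp1b (chr9:7388101-7388130, reverse strand): gttacaaagccTGAGTCAtatagcctctgg
Mmp7 (chr9:7692016-7692045, forward strand): aagtgtgcaaaTGAGTCAcctatttccaca
Mmp10 (chr9:7502268-7502297, forward strand): tagcacccatgTGAGTCAtgcttagtgacc
Mmp12 (chr9:7347319-7347348, forward strand): gacatcaacagTGAGTCAgatagaggattt

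These matches are descriptions of letters and were not measured as bound sites. Mmp1a, Mmp1b, Mmp7 and Mmp10 each had at most 3.40 normalised counts in any library, and Mmp12 had means of 54.2 ± 18.5 in naive and 68.2 ± 13.9 in DMM libraries. The AP-1 heptamer was therefore shared by the 2 cluster genes that were called higher and by 5 that were not, of which only Mmp12 had counts high enough to be given an adjusted p.

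Of the 9 metalloproteinase genes, 6 were higher in DMM than in naive cartilage and none was called lower. Mmp3 was higher by 11.3-fold, Mmp2 by 3.48-fold, Mmp23 by 2.11-fold, Mmp19 by 2.02-fold, Mmp14 by 1.89-fold and Mmp13 by 1.88-fold. Mmp9, Mmp11 and Mmp16 were not called. By the same rule, with p-values adjusted over all genes tested, 13.7% of the 17760 genes tested were called, 7.75% higher and 5.92% lower, against 6 of 9 metalloproteinase genes (66.7%), all of which were tested. The naive and DMM libraries did not overlap for the same 6 genes, and 22.2% of all genes tested had groups that did not overlap. The median log2 fold change was 0.92 over the 9 genes and -0.02 over all genes tested. Because the 9 genes were chosen with earlier results known, these comparisons with all genes are descriptions and no test of the set.

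**Figure D1:**
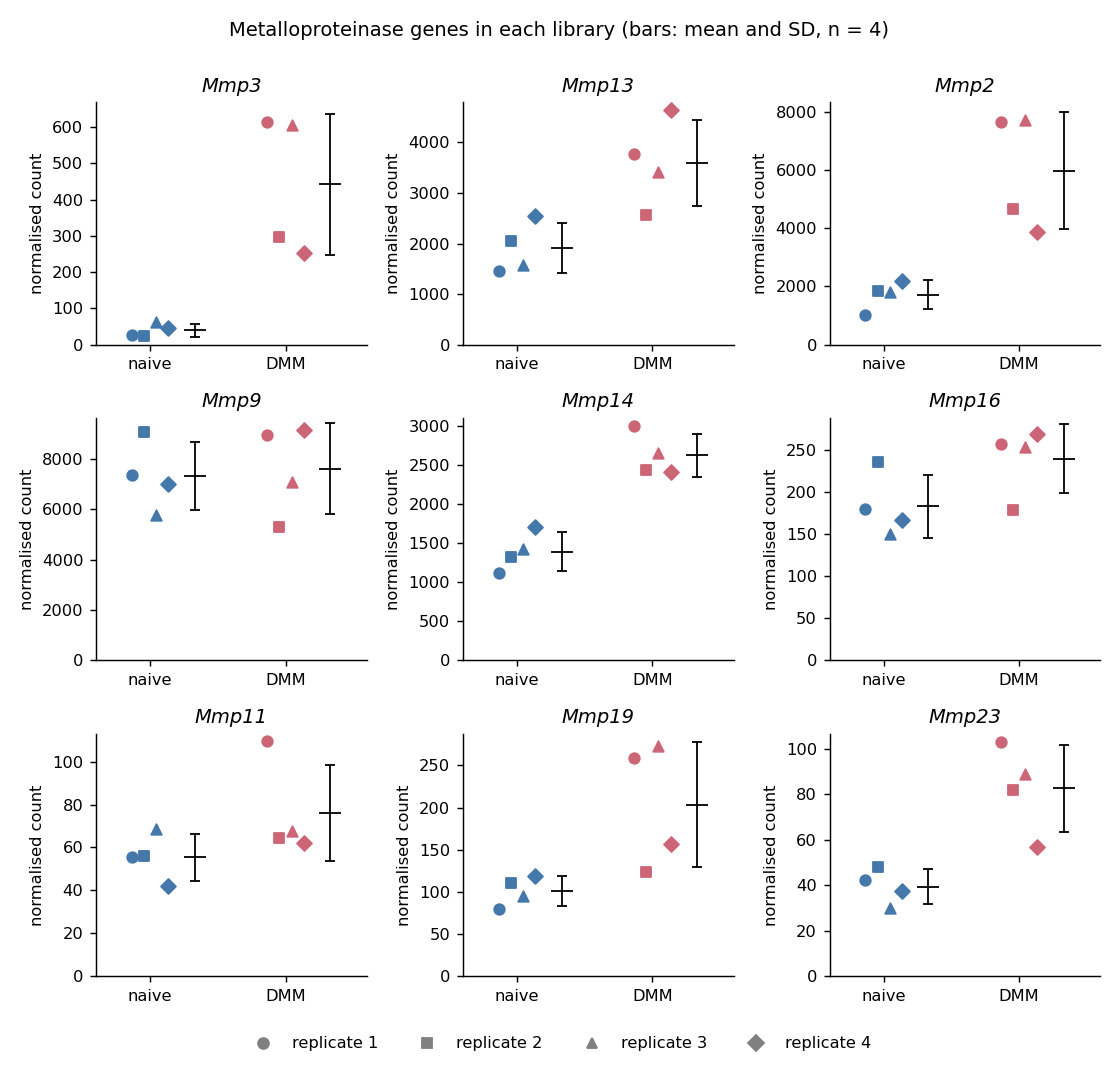
Normalised counts (y axis, from 0) of the 9 metalloproteinase genes in 4 naive (blue) and 4 DMM (red) libraries, with the marker shape giving the replicate and the black bars the mean and SD. All DMM libraries sit above all naive libraries for Mmp3, Mmp13, Mmp2, Mmp14, Mmp19 and Mmp23, and the groups overlap for Mmp9, Mmp16 and Mmp11.

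Mmp3 (stromelysin 1, ENSMUSG00000043613, chromosome 9, 7445822 to 7455975, forward strand, GRCm38) had 25.5, 23.9, 62.1 and 45.4 normalised counts in naive libraries 1 to 4. It had 615, 297, 606 and 252 in DMM libraries 1 to 4. The lowest DMM library was 4.06 times the highest naive library, and DMM libraries 1 and 3 held about the same level, above that of libraries 2 and 4. Its log2 fold change was 3.495 with a 95% interval from 2.81 to 4.18 (DESeq2 adjusted p = 7.84e-20). Of the 31-base words in the Mmp3 transcripts, 14.6% also occurred in transcripts of another gene, mostly Mmp10, so some reads could have been divided between the pair. Mmp10, stromelysin 2, had at most 3.40 normalised counts in any library.

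Mmp13 (collagenase 3, ENSMUSG00000050578, chromosome 9, 7272514 to 7283331, forward strand) had 1447, 2055, 1584 and 2542 normalised counts in naive libraries 1 to 4. It had 3762, 2565, 3408 and 4631 in the DMM libraries. The groups were separate by a narrow margin, since the lowest DMM library was 1.01 times the highest naive one. On the log2 scale the difference was 0.91 (SE 0.21; DESeq2 adjusted p = 0.000222). DMM library 4, the lowest for Mmp3, was the highest for Mmp13.

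Mmp2 (gelatinase A, ENSMUSG00000031740, chromosome 8, 92827291 to 92853420, forward strand) had 1013, 1851, 1801 and 2196 normalised counts in naive libraries 1 to 4. Its DMM libraries had 7646, 4662, 7716 and 3852. As for Mmp3, DMM libraries 1 and 3 were the highest, and every DMM library was above every naive one. The log2 fold change was 1.80 with a 95% interval from 1.30 to 2.30 (DESeq2 adjusted p = 6.43e-10). Mmp2 and Mmp3 were the members that were also called when the test asked for a change larger than 1.5-fold.

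Mmp9 (gelatinase B, ENSMUSG00000017737, chromosome 2, 164940780 to 164955850, forward strand), which osteoclasts and neutrophils are known to make in quantity, had 7372, 9058, 5792 and 7008 normalised counts in naive libraries 1 to 4. Its DMM libraries had 8934, 5289, 7098 and 9128. The groups overlapped across nearly their whole ranges. The fold of DMM over naive was 1.04 with a 95% interval from 0.807 to 1.34 (DESeq2 adjusted p = 0.873), which leaves room for a change in either direction within those bounds. Its direction turned when naive library 3, DMM library 1 or DMM library 4 was left out, where the log2 fold change was between -0.04 and -0.03.

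Mmp14 (MT1-MMP, ENSMUSG00000000957, chromosome 14, 54431612 to 54445364, forward strand) is a membrane-bound collagenase that activates pro-MMP2 on the cell surface together with TIMP2. It had 1113, 1321, 1428 and 1702 normalised counts in naive libraries 1 to 4 and 3001, 2428, 2655 and 2412 in the DMM libraries. The DMM libraries lay close together, with a coefficient of variation of 10.5% against 33.6% for Mmp2 and 44.1% for Mmp3. On the log2 scale they differed from naive by 0.92 (SE 0.14, DESeq2 adjusted p = 2.66e-08).

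Mmp16 (MT3-MMP, ENSMUSG00000028226, chromosome 4, 17852893 to 18119145, forward strand), another membrane-type member, had 179, 235, 149.8 and 167 normalised counts in naive libraries 1 to 4. Its DMM libraries had 257, 178, 254 and 269. DMM library 2 lay within the naive range and the other 3 DMM libraries lay above it. The log2 fold change was 0.40 with a 95% interval from 0.02 to 0.77 (DESeq2 adjusted p = 0.125).

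Mmp11 (stromelysin 3, ENSMUSG00000000901, chromosome 10, 75923222 to 75936496, reverse strand), a secreted enzyme that is activated inside the cell by furin, had 55.4, 55.9, 68.5 and 42.0 normalised counts in naive libraries 1 to 4. Its DMM libraries had 109, 64.5, 67.5 and 62.3. DMM library 1 stood apart and the other 3 lay within the naive range. Its fold change was 0.46 on the log2 scale (SE 0.27, DESeq2 adjusted p = 0.231).

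Mmp19 (ENSMUSG00000025355, chromosome 10, 128790910 to 128800824, forward strand), a secreted enzyme that acts on basement membrane proteins, had 79.1, 110.4, 95.3 and 119 normalised counts in naive libraries 1 to 4. Its DMM libraries had 259, 124, 273 and 157. The lowest DMM library was only 1.04 times the highest naive one, and DMM libraries 1 and 3 were again the highest. The log2 fold change was 1.02 (SE 0.27, DESeq2 adjusted p = 0.00175).

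Mmp23 (ENSMUSG00000029061, chromosome 4, 155650655 to 155653384, reverse strand), a member that is anchored in the membrane by its N-terminal end, had 42.2, 47.9, 30.0 and 37.4 normalised counts in naive libraries 1 to 4. Its DMM libraries had 102.8, 81.7, 88.9 and 56.9. The groups did not overlap, and DMM library 4 was nearest to the naive libraries. The difference was 1.07 on the log2 scale (SE 0.27, DESeq2 adjusted p = 0.000833).

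The level of each gene per kilobase of exon (normalised count divided by the length of its merged exons in GENCODE vM21) allows the genes to be set beside each other. In naive cartilage Mmp9 had the highest level at 2065 ± 381 per kilobase (SD, n = 4), followed by Mmp13 at 714 ± 186, Mmp2 at 509 ± 148 and Mmp14 at 233 ± 41.1. The remaining 5 genes had mean levels between 16.8 and 28.6, and each overlapped with its neighbour in that order. Among the higher genes, with this gene length, the libraries overlapped between Mmp13 and Mmp2 and not between the other neighbours.

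In DMM cartilage the order of levels per kilobase was Mmp9 at 2151 ± 508, Mmp2 at 1771 ± 595, Mmp13 at 1344 ± 320, Mmp14 at 440 ± 46.1 and Mmp3 at 246 ± 108. Mmp2 overlapped with Mmp9 above it and with Mmp13 below it. Mmp3 stood apart from Mmp14 above and from Mmp19 (57.5 ± 21.0) below, whereas in naive libraries it lay within the group of low genes. Mmp23, Mmp16 and Mmp11 followed at 35.3 ± 8.23, 27.6 ± 4.76 and 27.3 ± 8.08 with overlapping libraries.

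The summed level of the 9 genes was 3629 ± 547 per kilobase in naive and 6099 ± 1147 in DMM libraries. Mmp9 held 57.0% ± 7.07 of that sum in naive and 35.2% ± 4.92 in DMM libraries. Mmp2 held 14.0% ± 3.55 and 28.9% ± 7.12, and Mmp3 held 0.624% ± 0.346 and 3.95% ± 1.28. The shares of Mmp13 (19.5% ± 3.06 and 22.1% ± 4.19) and Mmp14 (6.49% ± 1.13 and 7.35% ± 1.11) moved by less than their SD. A share falls when other members rise, and the Mmp9 count itself was not called.

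**Figure D2:**
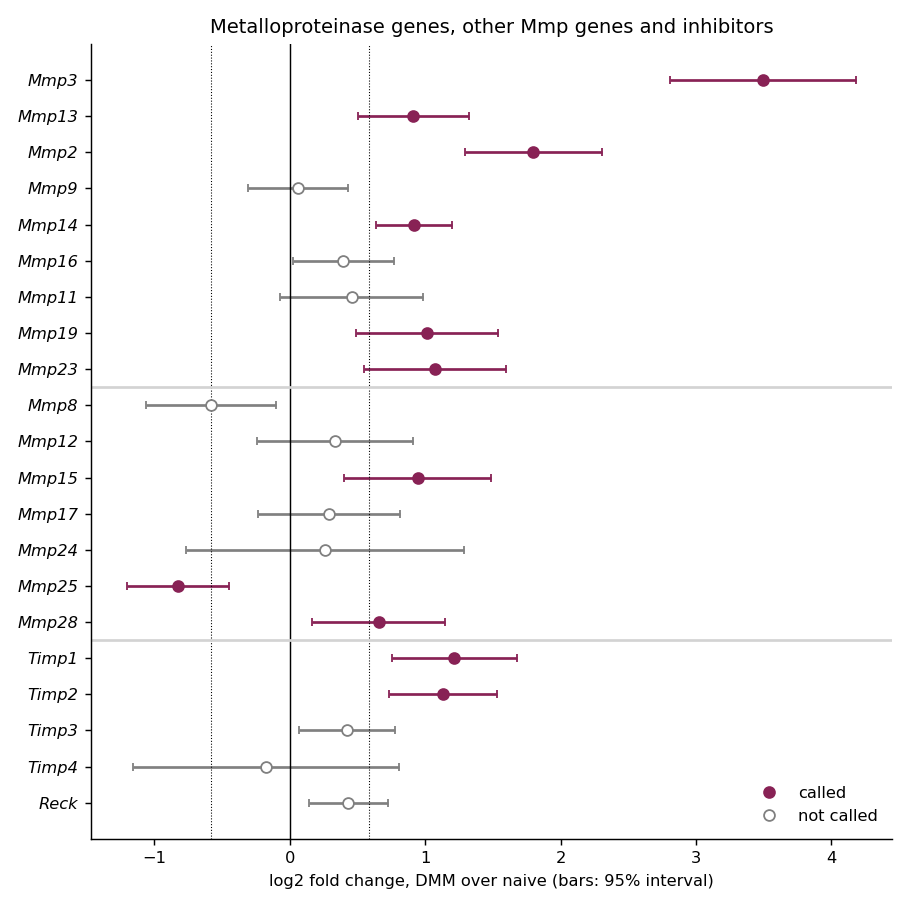
Log2 fold change of DMM over naive (x axis) with its 95% interval for the 9 metalloproteinase genes (top), the 7 other Mmp genes whose mean was 10 or more normalised counts (middle) and the TIMPs with Reck (bottom), where filled circles are called genes and dotted lines mark 1.5-fold. Mmp3 at 3.495 and Mmp2 at 1.80 lie farthest to the right, Mmp9 lies at 0.06, and Mmp25 at -0.82 is the called gene to the left of 0.

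Among the other 14 Mmp genes, 7 had an adjusted p and 3 of these were called (42.9%, against 13.7% of all genes tested). Groups that did not overlap were found for 1 of the 7 (14.3%), against 22.2% of all genes tested. These shares are descriptions and no test of the set. The membrane-type gene Mmp15 was higher, with 35.2, 46.6, 57.8 and 51.0 normalised counts in naive libraries and 111, 109.6, 56.8 and 88.4 in DMM libraries. DMM library 3 overlapped with the naive range. The log2 fold change of Mmp15 was 0.94 (SE 0.28, DESeq2 adjusted p = 0.00579). Mmp28 was higher by 0.66 (log2 scale; DESeq2 adjusted p = 0.0409), but it was called by neither edgeR (adjusted p = 0.0721) nor the fits without naive library 1, 2 or 3 or DMM library 1, 2 or 3, in which the log2 fold change ranged from 0.49 to 0.67.

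Mmp25 and Mmp8, which like Mmp9 are known from neutrophils, had lower means in DMM than in naive libraries. Mmp25 (MT6-MMP, or leukolysin) had 846, 826, 689 and 511 normalised counts in naive and 333, 346, 489 and 455 in DMM libraries, with no overlap. Its log2 fold change was -0.82 (SE 0.19, DESeq2 adjusted p = 0.000298). Mmp8 (neutrophil collagenase) had 2812, 3089, 2637 and 2161 in naive and 948, 1499, 2354 and 2338 in DMM libraries, and it was not called (log2 fold change -0.58, DESeq2 adjusted p = 0.0692). Mmp8 was called without naive library 4 (-0.67), without DMM library 3 (-0.75) and without DMM library 4 (-0.74). For both genes DMM libraries 1 and 2 were the lowest, as they were for the summed neutrophil list.

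Mmp12, Mmp17 and Mmp24 had log2 fold changes of 0.33, 0.29 and 0.26 with DESeq2 adjusted p of 0.468, 0.491 and 0.788. The 7 genes without an adjusted p were Mmp1a, Mmp1b, Mmp7, Mmp10, Mmp20, Mmp21 and Mmp27. Mmp7 was at 0 in all 8 libraries, which allows up to 3 counts in each.

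Of the 23 genes, 10 lie in the chromosome 9 cluster, within 427 kb. In order along the chromosome they are Mmp13, Mmp12, Mmp1b, Mmp3, Mmp1a, Mmp10, Mmp8, Mmp27, Mmp20 and Mmp7. Mmp13, Mmp12, Mmp3 and Mmp8 averaged 10 or more normalised counts. The other 6 reached at most 15.9 in any library, a value of Mmp27. Mmp13 and Mmp3, with starts 173 kb apart, were the called genes of the cluster.

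**Figure D3:**
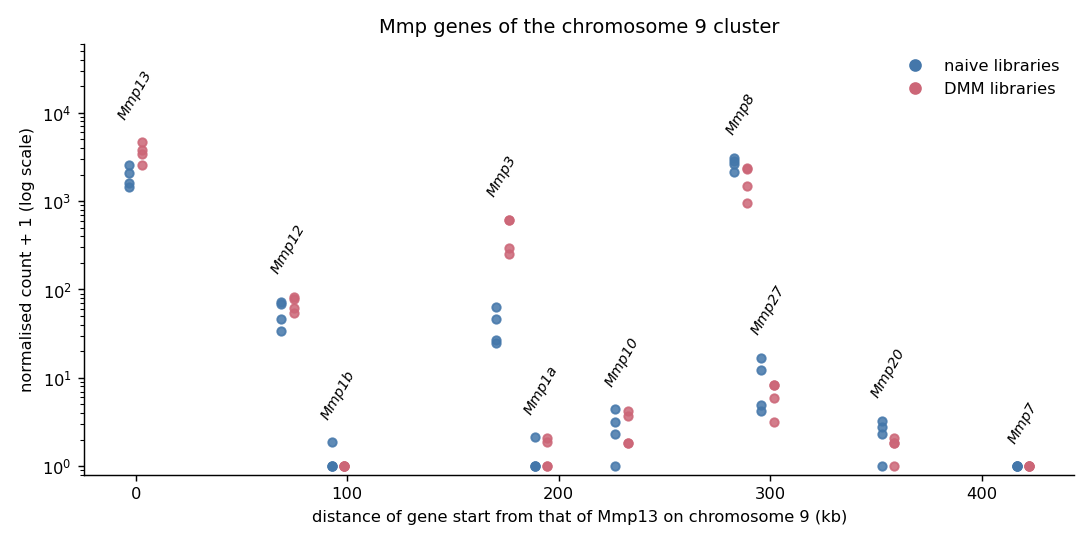
Normalised count plus 1 (y axis, log scale) of the 10 Mmp genes of the chromosome 9 cluster against the distance of their starts from that of Mmp13 in kb (x axis), with naive libraries in blue and DMM libraries in red. The groups are separate for Mmp13 and Mmp3, overlap for Mmp12 and Mmp8, and the other 6 genes stay at or under 15.9 normalised counts.

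The inhibitors of the enzymes were followed in the same libraries. Timp1 had 68.6, 99.8, 124 and 166 normalised counts in naive libraries and 262, 231, 303 and 264 in DMM libraries, which differed by 1.22 (log2, SE 0.24, DESeq2 adjusted p = 1.2e-05). Timp2, which inhibits MMP2 and also takes part in its activation by MMP14, had 2146, 2514, 2720 and 3953 normalised counts in naive and 6623, 5352, 7960 and 4869 in DMM libraries. Its log2 fold change was 1.13 (SE 0.20, DESeq2 adjusted p = 1.85e-06). Neither gene had overlapping groups.

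Timp3, which binds to the matrix, differed by 0.42 (log2 scale; DESeq2 adjusted p = 0.0739) and Timp4 by -0.18 (adjusted p = 0.856), with a sign that turned when naive library 4 or DMM library 4 was left out. Reck, a membrane-anchored inhibitor, was past the adjusted p (0.0221) with a log2 fold change of 0.43, under the 1.5-fold limit. In all, 2 of the 9 listed inhibitors were called higher and none lower, 2 having no adjusted p. The summed level of the 4 Timp genes per kilobase was 1436 ± 352 in naive and 2666 ± 409 in DMM libraries.

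Ratios between an enzyme and an inhibitor in the same library do not depend on how the library was scaled. They were compared by a two-sided exact permutation test over the 70 assignments of the libraries, for which the smallest possible p is 0.0286, and 5 of 7 ratios reached it (adjusted p = 0.04 over the 7). Of the ratios to an inhibitor, that of Mmp3 to Timp1 differed most, with a log2 ratio of -1.57 ± 0.47 in the naive group and 0.63 ± 0.59 in the DMM group (SD, n = 4), a difference of 2.20 ± 0.38 (SE). The ratio of Mmp2 to Timp2 was higher by 0.65 ± 0.18. The ratio of Mmp9 to Timp1 was lower, at 6.04 ± 0.67 in naive and 4.81 ± 0.33 in DMM libraries. That ratio falls when Timp1 rises, and the Mmp9 count itself was not called (log2 fold change 0.06, against 1.22 for Timp1).

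By contrast, the ratio of Mmp14 to Timp2 differed by -0.21 ± 0.14 and that of Mmp13 to Timp1 by -0.36 ± 0.23 (SE), both with overlapping groups (exact permutation p = 0.171, adjusted p = 0.171). Between enzymes, Mmp3 was higher relative to Mmp13 by 2.56 ± 0.53, and Mmp2 relative to Mmp9 by 1.75 ± 0.41, on the log2 scale. The log2 ratio of Mmp2 to Mmp9 was -2.86, -2.29, -1.68 and -1.67 in naive libraries and -0.22, -0.18, 0.12 and -1.24 in DMM libraries. DMM library 4 was nearest to the naive libraries.

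**Figure D4:**
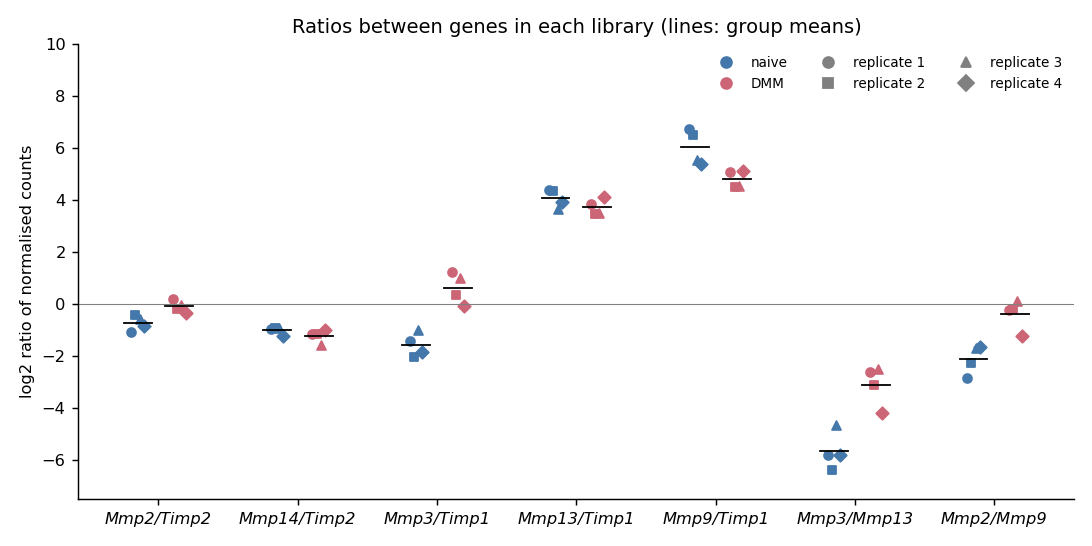
Log2 ratio of normalised counts (y axis) for the 7 pairs of genes in each naive (blue) and DMM (red) library, with lines at the group means. The groups are separate for Mmp2/Timp2, Mmp3/Timp1, Mmp9/Timp1, Mmp3/Mmp13 and Mmp2/Mmp9 and overlap for Mmp14/Timp2 and Mmp13/Timp1.

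Genes that act before or after the enzymes were taken from 6 lists with 61 genes in all. Of these, 54 were tested, 21 were called higher (38.9%, against 7.75% of all genes tested) and none lower in this fit. The 13 matrix substrates, all called, made up most of the 21. Of the tested genes, 28.6% of inhibitors, 14.3% of activators, 16.7% for clearance and docking, 7.69% of transcription factors and 37.5% of inducing ligands were called. Among 8 activators of the proenzymes, 1 was called. Pcsk5, a proprotein convertase, was higher by 1.25 on the log2 scale (SE 0.15, DESeq2 adjusted p = 1.37e-14), with 269, 294, 406 and 371 normalised counts in naive and 759, 776, 806 and 837 in DMM libraries. Furin differed by 0.32 (adjusted p = 0.0304), under the fold limit, and Plaur, the urokinase receptor, by -0.48 (adjusted p = 0.0522).

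Among 6 genes for clearance and docking, 1 was called. Lrp1, an endocytic receptor that takes up MMP13 and MMP2, was higher by 0.67 (log2 scale; DESeq2 adjusted p = 0.00137), with overlapping groups. Without naive library 1 it was at 0.57, under the 1.5-fold limit. With DMM libraries 1 and 3 left out it was not called either (0.50, DESeq2 adjusted p = 0.0925). Itgav and Itgb3, the subunits of the integrin that docks MMP2, differed by 0.58 and -0.55, also under that limit. Itgav was close to the limit and was called with edgeR (0.60), limma-voom (0.60), TMM factors (0.61), total count scaling (0.73), the replicate block (0.59), and without naive library 4 (0.69) or DMM library 2 (0.64). Itgb3 was past it without naive library 3 or naive library 4 (both -0.62).

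All 13 listed matrix substrates were called higher, with log2 fold changes from 0.67 to 2.08. Fmod (fibromodulin) was higher by 2.08 (DESeq2 adjusted p = 5.3e-21), Col5a1 by 1.48 (adjusted p = 3.26e-09) and Acan (aggrecan) by 1.09 (adjusted p = 7.75e-09). The list holds cartilage genes such as Col2a1 and Acan and bone genes such as Col1a1. Col2a1 (adjusted p = 0.0602) and Fn1 (adjusted p = 0.167) were not called with DMM libraries 1 and 3 left out. The summed chondrocyte list ranged from 42468 to 71663 normalised counts in naive and from 92850 to 173164 in DMM libraries. It shares Col2a1 and Acan with the substrate list, so the 2 lists are not independent. Of its 10 tested genes, 5 were called higher and none lower.

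Among 15 transcription factors of Mmp promoters, 13 were tested and Jun was called higher. That is 7.69% of those tested, close to the 7.75% called higher among all genes tested. Jun, a subunit of AP-1, had 328, 424, 344 and 506 normalised counts in naive and 743, 769, 771 and 534 in DMM libraries, a difference of 0.82 (log2, SE 0.18, DESeq2 adjusted p = 0.000103). DMM library 4, the lowest for Jun, was the highest for Mmp13 and the lowest for Mmp3. Junb and Runx2 were past the adjusted p with log2 fold changes of 0.53 and 0.40, under the fold limit.

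Of 10 ligands known to induce Mmp genes, 3 were called higher. Il11, a cytokine of the interleukin 6 family, was higher by 2.48 on the log2 scale (SE 0.46, DESeq2 adjusted p = 4.7e-06) at low counts, with 4.40, 7.98, 9.63 and 9.07 normalised counts in naive and 28.2, 63.4, 28.0 and 52.3 in DMM libraries, and it was given no adjusted p without DMM library 2. Fgf2 was higher by 0.87 (adjusted p = 0.000784). Lif was higher by 0.87 as well (adjusted p = 0.0153), but without naive library 1, naive library 2, DMM library 1 or DMM library 4 its adjusted p was between 0.0701 and 0.0812. Il1a, Il1b and Tnf, named after their values were seen, had log2 fold changes of -0.90, -0.46 and -0.48 with adjusted p of 0.0545, 0.213 and 0.128. Il1a was called lower without DMM library 3 (-1.17, adjusted p = 0.0166) and when only genes with a mean of 10 or more counts were tested (-0.90, adjusted p = 0.0474).

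The 6 called metalloproteinase genes did not vary alike among the DMM libraries. DMM libraries 1 and 3 had the highest levels of Mmp2, Mmp3, Mmp14, Mmp19 and Mmp23, whereas DMM library 4 was highest for Mmp13. The summed fibroblast list was 6172 and 6894 normalised counts in DMM libraries 1 and 3 and 3991 and 4088 in DMM libraries 2 and 4. The summed osteoblast and osteocyte list was also highest in DMM libraries 1 and 3. That list had 408882 and 363808 normalised counts there and 329795 and 298052 in DMM libraries 2 and 4. The part of either list in these levels was not tested. The summed chondrocyte list was highest in DMM libraries 3 and 4. The summed list of 8 hypertrophic chondrocyte genes, a cell state known for Mmp13, ranged from 31214 to 41010 in naive and from 53420 to 102015 in DMM libraries, with 6 of 8 called higher and its highest value, like that of Mmp13, in DMM library 4. The chondrocyte list was also highest in DMM library 4. DMM library 1, the next highest for Mmp13, was the lowest DMM library for the hypertrophic list. The part of the hypertrophic list in the Mmp13 result was not tested. With DMM libraries 1 and 3 both left out, a setting chosen after the data were seen, Mmp2 was higher by 1.31 and Mmp3 by 2.81 on the log2 scale and both were called, as were Mmp13 (0.92) and Mmp14 (0.80). Mmp19 (0.49, DESeq2 adjusted p = 0.274) and Mmp23 (0.82, adjusted p = 0.147) were not called there, with only 2 DMM libraries in the fit. Leaving out any 1 library kept all 6 calls.

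**Figure D5:**
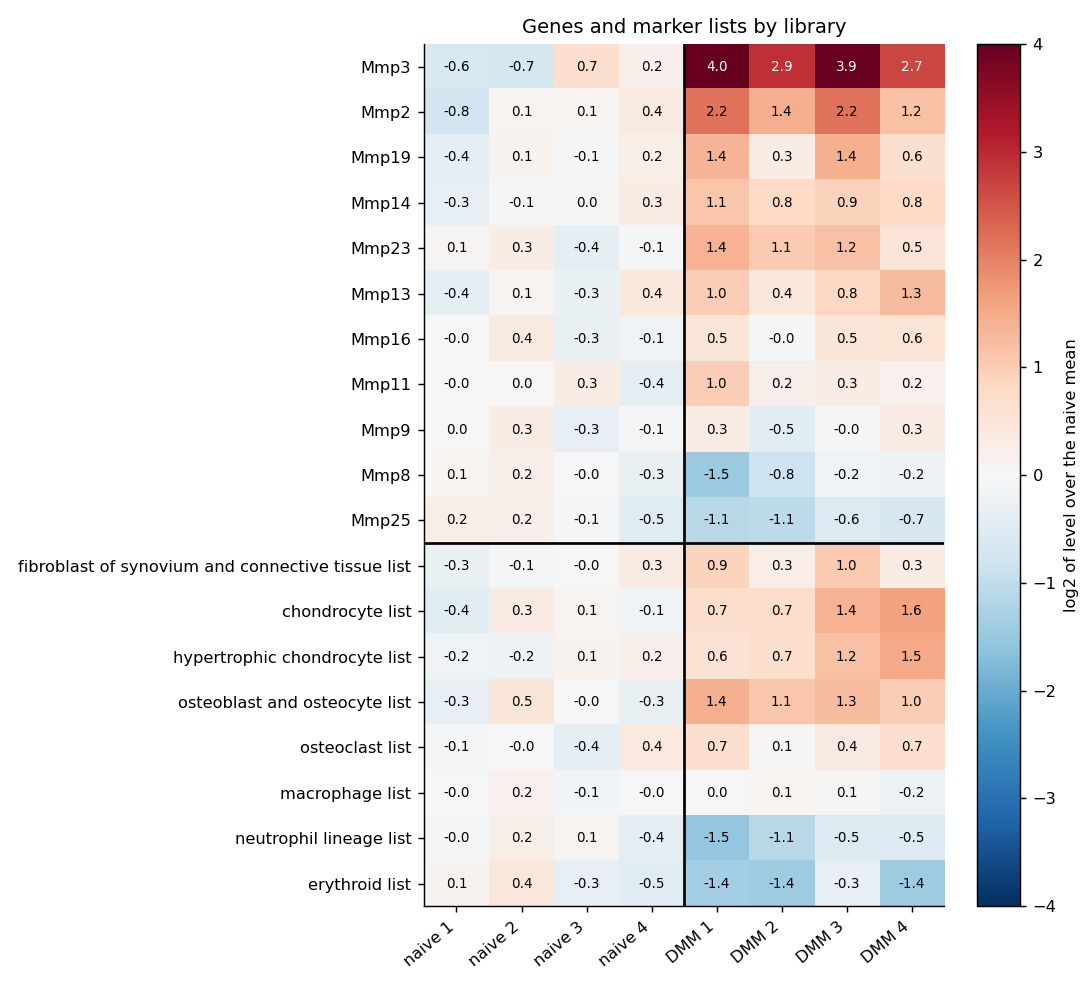
Log2 of the normalised count over the naive mean in each library (columns, naive left and DMM right) for the 9 metalloproteinase genes with Mmp8 and Mmp25 (upper rows) and for the summed marker lists of 8 cell types (lower rows), in red where higher and blue where lower. Mmp3, Mmp2 and Mmp19 are highest in DMM 1 and DMM 3, as are the fibroblast list and the osteoblast and osteocyte list. Mmp8 and Mmp25 are lowest in DMM 1 and DMM 2, as is the neutrophil list.

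Beside Mmp9, which was not called, the osteoclast list ranged from 6997 to 12038 normalised counts in naive and from 9613 to 14843 in DMM libraries, with 1 of its 8 tested genes called (Ocstamp). The neutrophil list, the other cell type known for this enzyme, was lower in each DMM library than in each naive one. The macrophage list ranged from 7070 to 8528 and from 6562 to 8076, with none of its 8 genes called. The part of these lists in the Mmp9 count was not tested.

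The genes whose pattern over the 8 libraries was most like that of each member were found among 13225 genes whose mean was 50 or more normalised counts, by the root mean square (RMS) difference of log2(normalised count + 1) after centring each gene. Any gene with the same difference between the groups comes out as alike. For Mmp3 they were Lrrc15, Hmcn1 and Angptl1, with RMS differences of 0.43, 0.60 and 0.66. For Mmp2 they were Mamdc2, Nbl1 and Thbs3 (0.12, 0.15 and 0.17), and for Mmp19 they were Thy1, a gene of the fibroblast list, Ptgfrn and Ccn3 (0.13, 0.15 and 0.16).

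Mmp14 had the closest matches in Gli3, P3h3 and Zcchc14, with RMS differences of 0.05, 0.07 and 0.08. Mmp13 was nearest to Ocstamp, a gene of osteoclast fusion, Tmem117 and Pcdhgb2 (0.17, 0.17 and 0.19), and Mmp23 to Id3, Gnai1 and Sdc1 (0.19, 0.20 and 0.20). For the members that were not called, the nearest genes were Mettl22, Zfp963 and Bdh1 for Mmp9, Ifitm5, Ankrd13b and Xylt2 for Mmp11, and Ppp1r13l, Pip4p2 and Tpgs2 for Mmp16, at RMS differences between 0.06 and 0.18.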

How the data were processed

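The authors trimmed the reads with Trimmomatic, pseudo-aligned them with Kallisto, summed transcripts to genes with tximport and deposited 1 table of estimated counts per gene, of which 39.2% are not whole numbers. Their methods pair GRCm38 with an annotation release that belongs to GRCm39, the labels name GRCh38, and the labels and the methods name different library kits. None of these was resolved, and strand use in counting was not stated. The estimated counts were rounded and tested with DESeq2 1.42.0 in R 4.3.3 (Wald statistic, size factors by the median of ratios, 4 naive against 4 DMM libraries, no covariates, Benjamini-Hochberg over all genes tested), the test the study's methods name. Alternatives used edgeR 4.0.16, limma 3.58.1 (voom), other scalings and filters, a replicate block and fits without 1 library. The DESeq2, edgeR and limma-voom tests of the 2 groups were tried out on simulated counts. Ratios used normalised counts plus 0.5. Symbols, coordinates and exon lengths came from GENCODE vM21 (GRCm38), matched by gene identifier.

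The 9 genes, the gene lists and the marker lists were chosen with earlier results of these data known. The genes named were all 9 members, other Mmp genes averaging 10 or more normalised counts, Timp1 to Timp4, Reck, the 3 genes with the smallest adjusted p in each other list, and the 3 genes most alike to each member. Other genes the text names (Il1a, Il1b, Tnf, Fn1, Col1a1, Col2a1, marker genes and the Mmp genes with lower counts) fall outside this rule and were chosen after their values were seen. At these depths the member counts behind a value went down to 17.9 estimated counts in a library, for Mmp3.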

Additional observations from a re-analysis of the deposited data

Results flagged for a closer look

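In 11 of 106 groups of 4 libraries, 1 library stood apart from the other 3 by more than Dixon's critical value for 4 samples, where chance flags about 1 in 20 groups, or 5.3 here. Among the metalloproteinase genes, DMM library 1 had 109.5 normalised counts of Mmp11, where the other DMM libraries had 62.3 to 67.5, and DMM library 2 had 178.4 of Mmp16, where the others had 253.5 to 269.0. Neither gene was called. Mmp24 had 8.23 normalised counts in DMM library 3 and 15.3 to 16.1 in the others.

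Timp3 had 4392 normalised counts in DMM library 1 against 6749 to 7202 in the other DMM libraries. The log2 ratio of Mmp14 to Timp2 was -1.22 in naive library 4 and between -0.95 and -0.93 in the other naive libraries. Itgav had 2136 normalised counts in naive library 4 (others 1565 to 1659), Itgb3 had 3340 in DMM library 4 (others 3128 to 3155), Jun had 534.3 in DMM library 4 (others 743.1 to 771.3) and Junb had 301.6 in naive library 1 (others 385.8 to 399.2). The summed erythroid list was 94525 normalised counts in DMM library 3 and between 43914 and 46502 in the other DMM libraries. The summed skeletal muscle list was 940.4 in DMM library 1 and between 53.2 and 134.4 in the others.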

How the results depend on the processing

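The count of 6 called metalloproteinase genes stayed at 6 with edgeR, limma-voom, TMM factors, total count scaling, both other filters, no fold threshold, the replicate block and each fit without 1 library (range 6 to 6). Against a null of 1.5-fold or less it was 2, with 0 other Mmp genes and 4 pathway genes. Without 1 library, other Mmp genes called ranged from 2 to 4 and pathway genes from 19 to 25. With DMM libraries 1 and 3 left out, chosen after the data were seen, the counts were 4, 2 and 17, the Mmp9 log2 fold change was -0.0167 and that of Timp4 was 0.14, the cause of which was not tested. Without 1 library the Mmp9 log2 fold change ranged from -0.04 to 0.20 (-0.0392 without naive 3, -0.0270 without DMM 1, -0.0384 without DMM 4) and that of Timp4 from -0.82 to 0.12 (0.1195 without naive 4, 0.0966 without DMM 4). With no fold threshold 29 pathway genes passed, and with total count scaling 25, where the median log2 fold change over genes averaging 10 or more counts moved from -0.01 to 0.14.

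For libraries with the same replicate number, the deviations of log2 counts from the group means correlated by 0.05, 0.06, -0.12 and 0.12. These values show no pairing by number. With the replicate block 6 metalloproteinase, 3 other Mmp and 21 pathway genes were called, with Mmp8 (-0.66) and Itgav (0.59) gained and Mmp28 and Lif lost. For the ratios, the paired sign-flip permutation gives 0 of 7 past the threshold because its smallest possible p is 0.125, and without 1 library the smallest exact permutation p is 0.0571. The ratios past the threshold were 5 with a pseudocount of 1 or 5. Taking the longest transcript as gene length, Mmp9 held 55.6% and 34.5% of the summed level in naive and DMM libraries. Mmp14 then held 10.5% and 11.9%, against 6.49% and 7.35% with merged exons. In naive library 1 the share of Mmp14 (9.39%) was then above that of Mmp2 (8.98%), so their naive libraries overlapped with that length. Depth limits the genes under 10 normalised counts, and the naive means of Mmp3 (39.2), Mmp23 (39.4) and Mmp11 (55.4) rest on few counts.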
